A study of Mus musculus with 28 samples.

Results

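The genes described here are 40 genes that mark monocytes and macrophages, the phagocytes of the myeloid lineage, followed through 28 samples of a mouse study of leukaemia-like myeloid cells. The members come from a list of gene symbols with no threshold on their values, drawn up with earlier results of these data known, and they were looked up in every column of the 2 bulk RNA tables (18 libraries) and by condition in the 2 single-cell tables (4 samples). All 40 were present in both bulk tables. In the table of c-Kit+ cells all 40 passed the filter on low counts, among 15224 genes tested, and in the table of the cell lines 36 passed among 13375. Cx3cr1, Marco, Ms4a7 and C1qa did not pass there. The single-cell tables list part of the genes: 29 members of 9448 genes on days 1 and 3, and 38 members of 11662 genes on day 5.

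All cells came from C57Bl/6 mouse bone marrow, enriched for c-Kit+ haematopoietic stem and progenitor cells (HSPCs). In the first bulk table, fresh HSPCs (ckit, n = 2) were compared with HSPCs kept for 4 days in cytokine medium after retroviral transduction with Ty1-tagged MOZ-TIF2, the fusion of a histone acetyltransferase and a nuclear receptor coactivator found in acute myeloid leukaemia (MT2, n = 2), or with empty vector (ckitDiff, n = 2), both sorted for GFP. In the second, lines made by transduction with HOXA9 alone or with EYA1 and HOXA9, sorted for their fluorescent reporters and replated for 4 rounds in methylcellulose, were given DMSO or 5 µM benzarone, an inhibitor of EYA phosphatases, for 72 h (n = 3 for each of the 4 groups). Single cells of a serially replated Ty1.MOZ-TIF2 line were profiled after DMSO for 1 or 5 days or 5 µM benzarone for 1, 3 or 5 days. The virus drives the oncogenes from outside their own loci, every group of the line table carries HOXA9, treated or not, and the labels name no separate animals behind the replicates, so p-values measure only the spread between these libraries, which may be technical.

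Monocytes and macrophages depend on the CSF1 receptor, leave the marrow through chemokine receptors such as CCR2, and clear particles with Fc, scavenger and lectin receptors. Resident macrophages add complement C1q, the kinases MERTK and AXL and the transcription factor MAF, while macrophages handling lipid and debris raise GPNMB, TREM2, LPL, SPP1 and MMP12. The factor PU.1 binds GGAA-cored sites near many of these genes. In bulk libraries, fewer cells of a type and less RNA per cell cannot be told apart.

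Promoter windows from RefSeq (GRCm38.p6) were at hand for 29 of the 40 members, each running from 250 bases before to 50 after a start site. They were searched on both strands for GAGGAAGT, a form of the PU.1 site, for TTNNGNAA (C/EBP), TGANTCA (AP-1) and CACGTG (E-box). GAGGAAGT was present in 5 of 29 members (C1qc, Fcgr4, Ly6c2, Mmp12 and Spp1) against 3.69% of 27025 genes, and counted by window in 16.2% of 37 member windows against 3.20% of 32851. TTNNGNAA was found in 20 members against 44.1% of genes, TGANTCA in 7 against 8.97%, and CACGTG in 0 against 8.09%. Below are the 250 bases before the start site of 4 of the 5 members, shown because their RNA differed most between the cultures, a choice made after the values were seen. They are C1qc at chr4:136892915-136893164 (minus strand), Spp1 at chr5:104434861-104435110 (plus), Mmp12 at chr9:7344147-7344396 (plus) and Ly6c2 at chr15:75111972-75112221 (minus). Each reads 5′ to 3′ along the gene's strand, with capitals for the match, which in C1qc and Mmp12 lies on the opposite strand and so reads ACTTCCTC.
C1qc: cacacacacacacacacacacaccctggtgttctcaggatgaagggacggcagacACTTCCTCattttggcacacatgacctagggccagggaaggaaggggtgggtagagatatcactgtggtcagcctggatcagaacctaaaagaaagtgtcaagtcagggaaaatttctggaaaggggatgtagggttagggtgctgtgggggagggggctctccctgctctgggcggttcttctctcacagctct
Spp1: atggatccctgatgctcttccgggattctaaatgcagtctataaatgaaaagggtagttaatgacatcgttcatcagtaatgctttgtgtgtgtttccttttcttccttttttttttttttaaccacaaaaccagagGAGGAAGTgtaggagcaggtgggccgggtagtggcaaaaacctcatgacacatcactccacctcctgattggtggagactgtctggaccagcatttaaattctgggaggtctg
Mmp12: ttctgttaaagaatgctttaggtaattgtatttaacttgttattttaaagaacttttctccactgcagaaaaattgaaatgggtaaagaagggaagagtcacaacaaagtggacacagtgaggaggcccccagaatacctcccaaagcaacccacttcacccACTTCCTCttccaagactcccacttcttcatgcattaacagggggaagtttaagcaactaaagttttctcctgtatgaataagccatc
Ly6c2: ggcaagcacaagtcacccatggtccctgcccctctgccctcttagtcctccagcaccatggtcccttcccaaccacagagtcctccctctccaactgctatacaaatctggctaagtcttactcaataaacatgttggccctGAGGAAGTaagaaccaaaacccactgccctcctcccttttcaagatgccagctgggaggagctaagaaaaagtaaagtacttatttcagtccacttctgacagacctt
The match began 195 bases before the start site in C1qc, 113 in Spp1, 88 in Mmp12 and 108 in Ly6c2, whose window holds another match 26 bases after the start site, outside the stretch printed. None of the 4 printed matches overlapped a match to another of the motifs searched. A match of letters is a description and shows no binding.

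Estimated counts summed to 12397486 to 34463851 per library in the c-Kit+ table and to 26340517 to 34606046 in the line table. Levels below are given as CPM (a gene's count relative to its library's total, counts-per-million, with edgeR's TMM factors), differences are log2 values of a fit over all genes of a table with their standard error (SE), and adjusted p is edgeR's quasi-likelihood test with Benjamini-Hochberg adjustment over all genes tested, called below 0.05. The 2 MT2 libraries stood apart in these genes: the summed level of the members was 1595 CPM in replicate 1 and 3514 in replicate 2, against 5893 and 5132 in ckit and 4933 and 8636 in ckitDiff. In the HOXA9 line, replicate 3 stood apart in both treatments, with Mrc1 at 111 and 108 CPM against 9.67 to 14.1 in the other 4 libraries. The cultured empty-vector cells were rich in mast cell and basophil markers, whose 12 genes summed to 58599 and 86928 CPM against 392 to 433 in ckit and 41.6 to 58.3 in MT2. Their part in the members' levels was not tested.

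After 4 days the 3 C1q genes were at 0 in MOZ-TIF2 cells, and Axl, Cd36, Apoe, Mrc1 and Maf were lower than in fresh HSPCs, while Gpnmb, Clec4n, Fcgr3 and Fabp5 were higher. Summed markers of other cell types were lower too: 6 erythroid genes were at 4236 to 5979 CPM in ckit and 4.51 to 4.87 in MT2, 5 B cell genes at 426 to 482 and 5.13 to 5.27, 4 T and NK cell genes at 83.9 to 95.4 and 1.93 to 7.92, 11 dendritic cell genes at 408 to 639.5 and 32.9 to 38.2, and 4 megakaryocyte genes at 160.3 to 236 and 2.07 to 2.84. In ckitDiff the same sums were 47.5 to 63.3 (erythroid), 0.43 to 1.18 (B cell), 0.346 to 1.15 (T and NK cell), 275 to 2239 (dendritic cell) and 2188 to 2409 CPM (megakaryocyte). Their part in the members' differences was not tested. Against fresh cells, 19 of the 40 members fell and 4 rose (23.7% of all genes tested were called, 12.4% lower and 11.3% higher), and the members' median log2 difference was -1.90 against 0.00 over all genes. Against empty-vector cells, 22 fell and 2 rose (29.5% of all genes called, 16.2% lower and 13.3% higher), with a median of -3.39 against 0.03. Both comparisons share the MT2 libraries. Empty-vector cells differed from fresh ones too: 14 members rose and 6 fell (40.7% of genes called, 21.0% higher and 19.7% lower), with a median of 0.36 against -0.03. Without either one of the 2 fresh libraries, the calls against fresh cells numbered 8 members for MT2, all lower (Cx3cr1, Itgax, Cd36, the 3 C1q genes, Maf and Apoe), and 7 members for ckitDiff, and over all genes from 3602 to between 374 and 451 for MT2, and from 6198 to between 1259 and 1555 for ckitDiff.

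**Figure D1:**
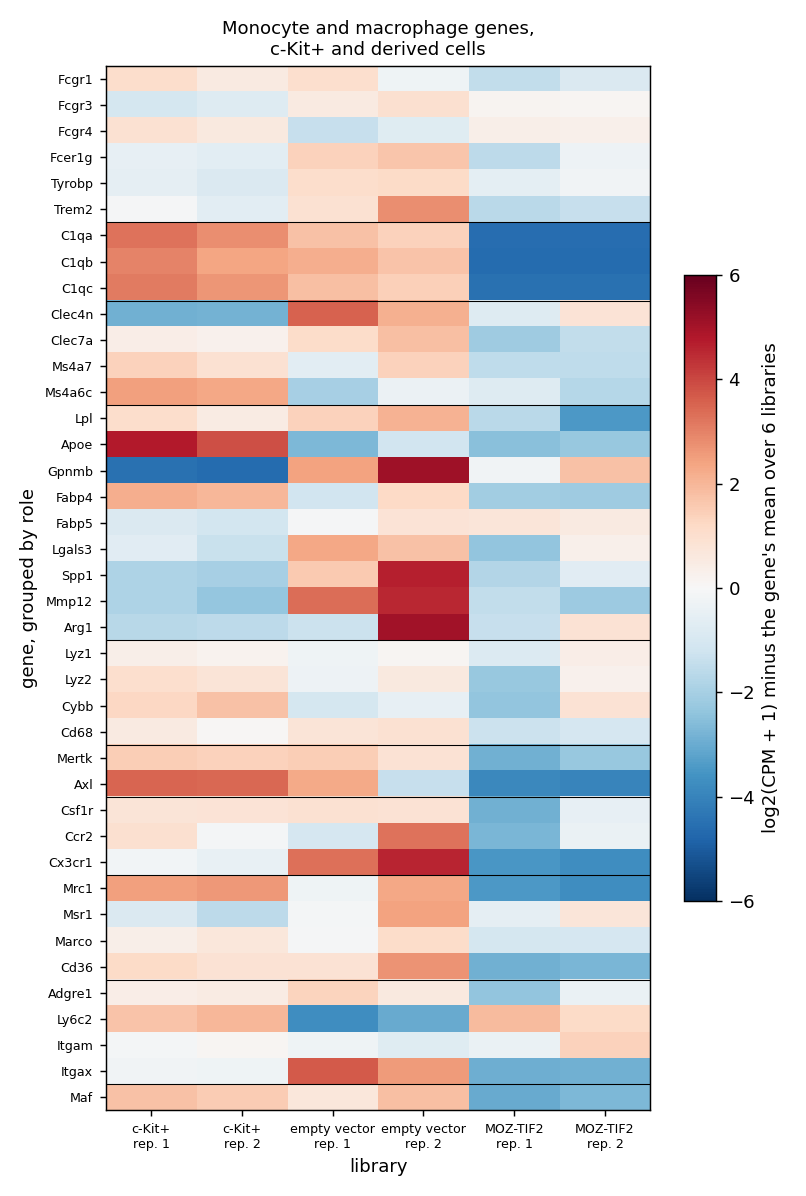
Heat map of the 40 members (rows, grouped by role with lines between roles) in the 6 libraries of the c-Kit+ table (columns: c-Kit+ is ckit, empty vector is ckitDiff, MOZ-TIF2 is MT2), coloured by log2(CPM + 1) minus the gene's mean over the 6 libraries, red above the mean and blue below. The 3 C1q genes, at 0 CPM in both MT2 libraries, are blue there and red in the other 4, and Ly6c2 is blue only in ckitDiff, at 9.6 and 16.3 CPM.

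Among the receptors, Csf1r, which binds the growth factors CSF1 and IL-34, was at 5.87 and 34.9 CPM in MT2, 85.8 and 89.5 in ckit, and 94.2 and 90.3 in ckitDiff. Both MT2 libraries lay below the other 4 but far apart from each other, and the difference missed the threshold against ckit (-2.11 ± 0.74, adjusted p = 0.087) and against ckitDiff (-2.18 ± 0.74, adjusted p = 0.071); DESeq2 called both lower (adjusted p = 0.013 and 0.0085). Cx3cr1, the fractalkine receptor of patrolling monocytes and tissue macrophages, was at 0.3 and 0.0875 CPM in MT2, 11.9 and 9.6 in ckit and 140.2 and 339.8 in ckitDiff. These 3 groups did not overlap: Cx3cr1 rose from fresh to empty-vector cells (4.48 ± 0.57, adjusted p = 0.0032) and was lower in MT2 than in either (-10.22 ± 0.76 against ckitDiff, adjusted p = 0.00062). Ccr2, which draws monocytes out of the marrow, varied widely within groups, from 6.31 to 36.2 CPM in MT2, 43.6 to 94.9 in ckit and 22.8 to 468 in ckitDiff, and was called in none of the 3 comparisons.

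The surface markers moved in different directions. Adgre1, which encodes the macrophage antigen F4/80, was at 5.95 and 26.5 CPM in MT2 against 47.1 and 49.4 in ckit and 90.4 and 53.2 in ckitDiff, with no overlap and no call (adjusted p = 0.13 and 0.058). Ly6c2, the antigen of classical monocytes and their progenitors, was at 514 and 306 CPM in MT2 and 463 and 566 in ckit, but 9.6 and 16.3 in ckitDiff. MT2 and ckit overlapped (-0.33 ± 0.37, adjusted p = 0.54), and Ly6c2 fell in empty-vector cells (-5.31 ± 0.44, adjusted p = 0.0011). Itgax, the integrin CD11c, did the reverse, at 0.273 and 0.321 CPM in MT2, 7.3 and 7.16 in ckit and 124 and 56.5 in ckitDiff (MT2 against ckitDiff -8.22 ± 0.53, adjusted p = 0.00044). Itgam, the integrin CD11b shared with neutrophils, was at 163 and 555 CPM in MT2, 198 and 231 in ckit and 178 and 129 in ckitDiff. Those groups overlapped and none of the 3 comparisons called it.

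Of the 6 Fc receptors and adaptors, 1 rose and 1 fell in MT2 against ckit, and 4 rose and 1 fell in ckitDiff against ckit. The shares of all genes called in these comparisons were 23.7% and 40.7%. Tyrobp, the signalling adaptor DAP12, was at 129.8 and 168 CPM in MT2, 136 and 107 in ckit and 414 and 433 in ckitDiff. MT2 and ckit overlapped (0.29 ± 0.24, adjusted p = 0.41), and ckitDiff lay above both (1.80 ± 0.25 against ckit, adjusted p = 0.004). Fcer1g, the common Fc receptor gamma chain, which mast cells also use, was at 65.3 and 158 CPM in MT2, 142 and 127 in ckit and 527 and 624 in ckitDiff, and rose in ckitDiff (2.10 ± 0.43, adjusted p = 0.013). Fcgr1, the high-affinity IgG receptor CD64, was at 2.02 and 3.59 CPM in MT2, 16.3 and 11.1 in ckit and 15.5 and 6.05 in ckitDiff, and was lower in MT2 than in ckit (-2.28 ± 0.59, adjusted p = 0.039; 0.061 to 0.22 without any one of the 4 libraries). Trem2, a lipid-sensing receptor that signals through Tyrobp, ranged from 0.437 to 0.7 CPM in MT2, 1.86 to 3.25 in ckit and 7.45 to 29.8 in ckitDiff, and rose from fresh to empty-vector cells (2.87 ± 0.76, adjusted p = 0.028; 0.12 to 0.17 without either ckit library or ckitDiff replicate 2).

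Of the 4 scavenger receptors and 2 receptor kinases for debris and dying cells, 3 and 2 fell in MT2 against ckit. In that comparison 12.4% of all genes were called lower. Axl, a kinase that recognises dying cells through GAS6, was at 0.382 and 0.292 CPM in MT2 against 223 and 216 in ckit, and at 95.2 and 6.67 in ckitDiff. The log2 difference of MT2 was -9.32 ± 1.47 from ckit (adjusted p = 0.01) and -7.21 ± 1.37 from ckitDiff (adjusted p = 0.013), and each call was lost with 1 library fewer, the first without either ckit library (adjusted p = 0.063 to 0.068) and the second without either MT2 library (0.052 to 0.056). Mertk, its relative, fell against both (-5.72 ± 0.80 and -5.48 ± 0.79), and its call against ckit was lost without either ckit library. Mrc1, the mannose receptor CD206, was at 1.28 and 0.904 CPM in MT2, 139 and 154 in ckit and 20.2 and 125 in ckitDiff, and Cd36, which takes up oxidised lipid, at 0.0273 and 0.117 in MT2, 15.7 and 12.8 in ckit and 12.9 and 46.7 in ckitDiff. Both were far lower in MT2 than in any other library, with Cd36 at -7.55 ± 0.94 from ckit (adjusted p = 0.0055) and -8.62 ± 0.97 from ckitDiff (adjusted p = 0.0022). Marco, a scavenger receptor for bacteria, had 3 counts over both MT2 libraries, so its level in ckit was 49.2 times higher with a counting interval of 16.1 to 245.

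C1qa, C1qb and C1qc, which lie next to each other on chromosome 4 and encode the chains of the complement recognition protein, had 0 counts in both MT2 libraries. C1qa was at 227 and 162 CPM in ckit and 80.2 and 61.7 in ckitDiff, so that, taking 3 counts over the group as its limit, it was at least 4600-fold lower in MT2 than in ckit and at least 1680-fold lower than in ckitDiff. For C1qb the bounds were 3800-fold and 2220-fold, and for C1qc 3930-fold and 1620-fold (counting error only). C1qa and C1qc also fell from fresh to empty-vector cells (-1.46 ± 0.27, adjusted p = 0.014, and -1.28 ± 0.27, adjusted p = 0.019). Maf, a transcription factor of resident macrophages, was at 0.0819 and 0.321 CPM in MT2, 28 and 23.7 in ckit and 12.7 and 29.7 in ckitDiff, a difference of -6.98 ± 0.76 from ckit (adjusted p = 0.0036). Both fresh HSPC libraries thus held C1q and Maf RNA, as they did that of Axl and Mrc1.

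Among the lysozyme and phagosome genes only Cd68 was called, and Lyz2 and Cybb differed widely between the MT2 libraries. Lyz2, lysozyme M, was at 235 and 1340.0 CPM in MT2, 2284 and 1919.7 in ckit and 913 and 1701 in ckitDiff, with overlap between MT2 and ckitDiff and no call in any of the 3 comparisons. Cd68, a lysosomal membrane protein, was at 22.6 and 27.4 CPM in MT2, 81.9 and 58.3 in ckit and 96.4 and 107 in ckitDiff, lower in MT2 than in both (-1.49 ± 0.24, adjusted p = 0.011, and -2.03 ± 0.25, adjusted p = 0.003). Its call against ckit was lost without either ckit library. Cybb, the NADPH oxidase subunit, was at 21.1 and 212 CPM in MT2, 273 and 391 in ckit and 55.5 and 82.3 in ckitDiff, and was not called.

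Of 9 genes of lipid handling and tissue remodelling, 2 rose and 3 fell in MT2 against ckit, 5 rose and 1 fell in ckitDiff against ckit, and 4 fell in MT2 against ckitDiff. The shares of all genes called were 23.7%, 40.7% and 29.5% in that order. Gpnmb, a lysosomal glycoprotein of lipid-laden macrophages, was at 22.8 and 91.1 CPM in MT2, 0.221 and 0.116 in ckit, and 146 and 938 in ckitDiff. It rose in both cultures against fresh cells (8.40 ± 1.48, adjusted p = 0.014, and 11.65 ± 1.59, adjusted p = 0.004), calls that were lost without either fresh library (adjusted p = 0.11 to 0.12, and 0.051 for both). Apoe, the lipid carrier, was at 2.79 and 3.35 CPM in MT2 and 2.29 and 8.61 in ckitDiff against 573 and 305 in ckit (-7.16 ± 0.78, adjusted p = 0.0036, and -6.32 ± 0.75, adjusted p = 0.0027). Mmp12, macrophage elastase, was at 5.71 and 3.21 CPM in MT2, 4.2 and 2.79 in ckit and 192 and 428 in ckitDiff, high only in ckitDiff among these 3 groups (6.48 ± 0.59 against ckit, adjusted p = 0.0013). Spp1, osteopontin, followed the same order, at 14.4 and 32.1, 13.6 and 12.3, and 156 and 1307 CPM (5.82 ± 1.10, adjusted p = 0.01). Arg1, the arginase of alternatively activated macrophages, rested on single libraries: 0.273 and 5.08 CPM in MT2, 0.0738 and 0.116 in ckit (3 counts in all), and 0.382 and 111 in ckitDiff. Its ratio of ckitDiff to ckit was 662 with a counting interval of 226 to 3209, and it was not called (adjusted p = 0.059).

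The 4 lectins and MS4A proteins split likewise. Clec4n, Dectin-2, a receptor for fungal mannans, was at 8.77 and 29 CPM in MT2, 1.25 and 1.4 in ckit and 192 and 73.9 in ckitDiff, and rose in both cultures against fresh cells (3.82 ± 0.77, adjusted p = 0.02, and 6.64 ± 0.85, adjusted p = 0.0033). Clec7a, Dectin-1, which binds beta-glucan, was at 3.06 and 5.28 CPM in MT2, 22.5 and 20.3 in ckit and 37 and 60.7 in ckitDiff, lower in MT2 than in ckit (-2.36 ± 0.38, adjusted p = 0.011). Ms4a6c, a tetraspan membrane protein of monocytes, was at 4.23 and 1.75 CPM in MT2 and 1.24 and 6.05 in ckitDiff against 47.5 and 43.8 in ckit, and fell in both. The calls of Clec4n, Clec7a and Ms4a6c in MT2 against ckit were lost without either ckit library.

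In the lines, EYA1 was added to HOXA9, and the question was how the 2 lines differ and how each responds to benzarone. With DMSO, the EYA1+HOXA9 line was higher than the HOXA9 line in 7 of 36 members (Ly6c2, Fcgr4, Fcer1g, Tyrobp, Ms4a6c, Lyz2 and Apoe) and lower in 4 (Csf1r, Fcgr1, Clec4n and Lpl), with 22.9% of all genes called (12.1% higher and 10.8% lower). The median difference was 0.12 against -0.01 over all genes. Leaving out 1 library at a time gave 6 to 8 called members: 6 without EYA1+HOXA9 DMSO replicate 1, and 7 without EYA1+HOXA9 DMSO replicate 3 or without HOXA9 DMSO replicate 2 or 3.

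Csf1r was lower in the EYA1+HOXA9 line with DMSO, at 5.11, 5.79 and 4.67 CPM against 12.7, 11.5 and 21.1, with no overlap (-1.54 ± 0.43, adjusted p = 0.024; between 0.053 and 0.09 without any one of the 3 EYA1+HOXA9 libraries or HOXA9 replicate 3). Lpl, the lipase that frees fatty acids from lipoproteins, was at 21.2, 26.5 and 22.1 CPM against 59.9, 71.9 and 152 (-2.02 ± 0.41, adjusted p = 0.004), and Clec4n at 1.75, 3.49 and 3.68 against 13.1, 6.68 and 23.4 (-2.27 ± 0.53, adjusted p = 0.0091). For both genes every EYA1+HOXA9 library lay below every HOXA9 library. In the other direction, Fcer1g was at 194, 206 and 195 CPM against 128, 116 and 118 (0.71 ± 0.14, adjusted p = 0.0038), Lyz2 at 739, 577 and 556 against 325, 246 and 335 (1.05 ± 0.29, adjusted p = 0.022; 0.055 to 0.091 without EYA1+HOXA9 replicate 1 or HOXA9 replicate 1 or 2), and Ly6c2 at 6063, 4846 and 4998 against 3479, 2989 and 3542 (0.67 ± 0.16, adjusted p = 0.0092). Tyrobp was at 154, 118 and 120.4 CPM against 94.7, 85.8 and 82.4 (0.58 ± 0.18, adjusted p = 0.033; 0.059 to 0.1 without any one library other than EYA1+HOXA9 replicate 2). Fcgr4, an IgG receptor of monocytes and neutrophils, was at 28.5, 13.5 and 13.2 CPM against 9.66, 8.27 and 9.2 (1.02 ± 0.32, adjusted p = 0.035; 0.063 to 0.13 without EYA1+HOXA9 replicate 1 or any HOXA9 library). Adgre1 (-0.13 ± 0.34), Itgam (0.04 ± 0.19) and Arg1 (-1.34 ± 0.81) were not called, and Fcgr1 was at 1.21, 1.18 and 1.35 CPM against 2.15, 2.42 and 4.85 (-1.33 ± 0.44, adjusted p = 0.047; 0.065 to 0.16 without any one library other than HOXA9 replicate 1).

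Benzarone raised 15 of 36 members in the EYA1+HOXA9 line and lowered 1, Apoe; 29.4% of all genes tested were called (17.0% higher and 12.4% lower). The members' median was 0.71 against 0.01 over all genes. The genes that rose were both receptors tested (Csf1r and Ccr2), the surface markers Adgre1 and Itgam, Fcgr3 and Fcer1g, Cd36, Mertk, Clec7a and Ms4a6c, the lysozyme and phagosome genes Lyz2, Cybb and Cd68, and the lipid genes Lpl and Gpnmb. Over the 40 members, 20 had their lowest benzarone library above their highest DMSO library. The share of all genes that did so was not counted, so this number has no background to be judged by. Without any one of these 6 libraries, 11 to 16 members were called.

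**Figure D2:**
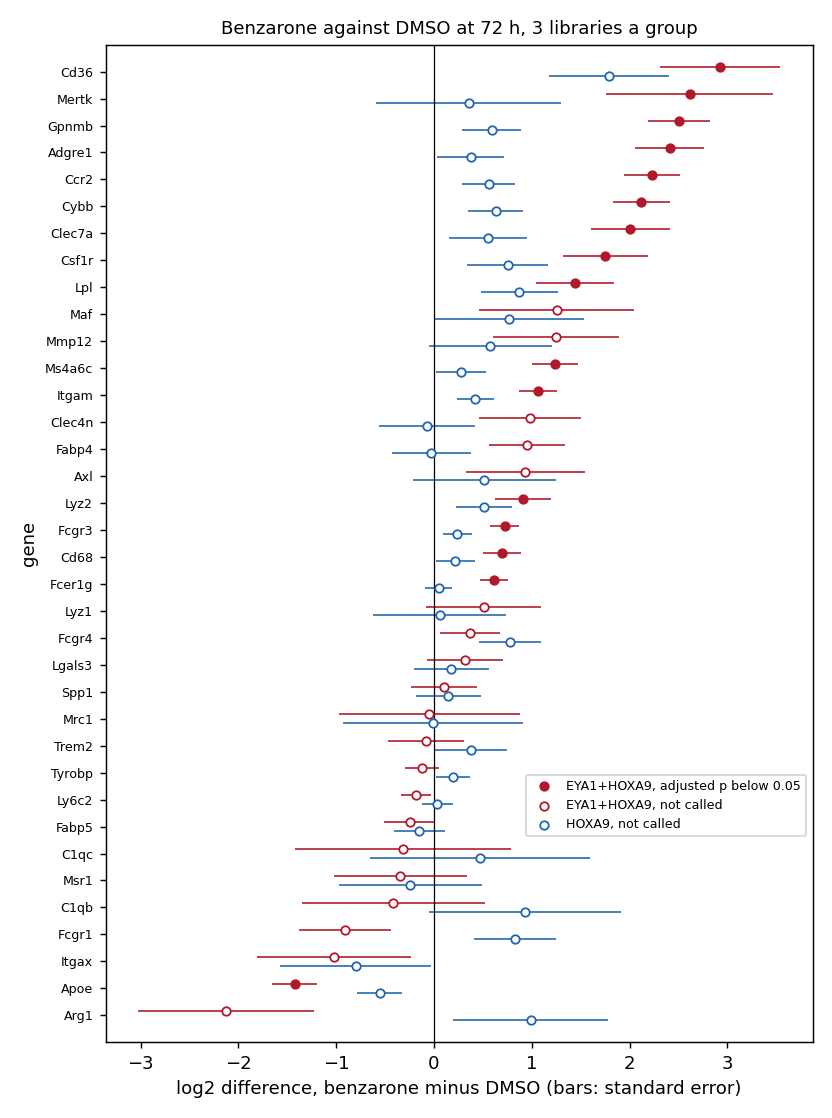
Log2 difference between benzarone and DMSO for each member tested in the EYA1+HOXA9 line and in the HOXA9 line, ordered by the first, with red points for the EYA1+HOXA9 line and blue for the HOXA9 line, bars of 1 SE to each side, and filled points for adjusted p below 0.05. Of 36 members, 16 are called in the EYA1+HOXA9 line (Gpnmb at 2.51) and 0 in the HOXA9 line.

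Ccr2 was at 1224, 716 and 524 CPM with benzarone against 176, 211 and 138 with DMSO (2.23 ± 0.28, adjusted p = 0.00025). Csf1r was at 28.9, 16.7 and 6.87 CPM against 5.11, 5.79 and 4.67 (1.75 ± 0.43, adjusted p = 0.0097; 0.059 without benzarone replicate 1). Adgre1 was at 145, 112 and 48 CPM against 25.8, 19.3 and 12.3 (2.41 ± 0.35, adjusted p = 0.00053). For these 3 genes the groups did not overlap, and benzarone replicate 1 was the highest library and replicate 3 the lowest of the treated ones. Itgam was at 985, 822 and 515 CPM against 334, 398 and 379 (1.06 ± 0.19, adjusted p = 0.0018).

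Cybb was at 455, 279.6 and 176 CPM with benzarone against 61.3, 84.1 and 64.3 (2.12 ± 0.29, adjusted p = 0.00037). Gpnmb was at 2015, 1314 and 861 CPM against 253, 311 and 173 (2.51 ± 0.32, adjusted p = 0.00025). Clec7a was at 171, 124 and 96.9 CPM against 38, 36 and 23.4 (2.01 ± 0.40, adjusted p = 0.0031). The same order of the treated libraries recurred in these 3 genes. Lpl was at 96.6, 52.1 and 40.8 CPM against 21.2, 26.5 and 22.1 (1.44 ± 0.40, adjusted p = 0.018; 0.054 to 0.11 without benzarone replicate 1 or DMSO replicate 1 or 3), and Ms4a6c at 21.3, 19.4 and 15.5 against 8.57, 9.08 and 6.19 (1.24 ± 0.24, adjusted p = 0.0024). Lyz2 was at 1632, 1143 and 746 CPM against 739, 577 and 556 (0.91 ± 0.29, adjusted p = 0.032; 0.07 to 0.16 without benzarone replicate 1 or 2 or DMSO replicate 2 or 3). Its lowest treated library lay just above its highest DMSO library. Cd36 (2.93 ± 0.61) and Mertk (2.62 ± 0.85) rose from low levels, Mertk from 0.403, 0.857 and 0.609 to 7.03, 2.98 and 1.54 CPM, and its call was lost without any one library other than benzarone replicate 3 (adjusted p = 0.063 to 0.18).

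Some macrophage genes did not follow. Apoe was at 1.26, 1.19 and 1.22 CPM with benzarone against 2.96, 3.37 and 3.55 (-1.43 ± 0.23, adjusted p = 0.0009). Arg1 was at 0.539, 1.79 and 1.79 CPM against 7.06, 4.76 and 6.09, below every DMSO library and not called (-2.13 ± 0.90, adjusted p = 0.096). Fcgr1 was at 0.419, 1.16 and 0.394 CPM against 1.21, 1.18 and 1.35 (-0.91 ± 0.47, adjusted p = 0.17), and Tyrobp at 135, 121 and 105 against 154, 118 and 120.4 (-0.12 ± 0.17, adjusted p = 0.65). Marco had 0 counts in all 12 line libraries, and Mrc1, C1qb, C1qc, Trem2 and Spp1 were not called in this line. Maf was not called either, but its difference was upward (1.25). Its lowest benzarone library lay above its highest DMSO library.

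In the HOXA9 line, edgeR's quasi-likelihood test called 0 of 36 members and 0 of 13375 genes; 6 members and 232 genes had an unadjusted p under 0.05, and DESeq2 called 0 members and 14 genes. The members still leaned upward, with 29 of 36 differences above 0 and a median of 0.38 against 0.00 over all genes. Same-numbered HOXA9 libraries deviated together, and pairing them in a fit of this line alone called 20 genes and 0 members. There 19 members and 817 of 12517 genes had an unadjusted p under 0.05. Among the members, the lowest adjusted p in that paired fit was 0.058, for Csf1r (0.74 ± 0.079) and Lpl (0.90 ± 0.097). Csf1r was at 20.8, 19.8 and 35.8 CPM with benzarone against 12.7, 11.5 and 21.1 with DMSO, higher in each same-numbered pair. Lpl was at 135, 126 and 259 CPM against 59.9, 71.9 and 152, also higher in each pair with overlap between the groups. Of the 40 members, 20 were higher with benzarone in all 3 same-numbered pairs, and 5 had their lowest treated library above the highest DMSO one. Neither share was counted over all genes, so both numbers lack a background.

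The difference between the 2 responses was tested itself, as an interaction. It was called for 4 of 36 members, all with the larger rise in the EYA1+HOXA9 line, with 7.54% of all genes called (4.71% higher and 2.83% lower) and a median of 0.46 against 0.01. These were Adgre1 (2.03 ± 0.49, adjusted p = 0.027), Gpnmb (1.92 ± 0.43, adjusted p = 0.021), Ccr2 (1.67 ± 0.39, adjusted p = 0.024) and Cybb (1.49 ± 0.40, adjusted p = 0.042). In the HOXA9 line, Adgre1 was at 30.9, 22.8 and 27.8 CPM with benzarone against 20.4, 18.4 and 24, Ccr2 at 237, 165 and 205 against 147, 111 and 152, Cybb at 188, 126 and 160.0 against 106, 85.1 and 115, and Gpnmb at 397, 271 and 336 against 265, 159.9 and 242. Each of these 4 genes was higher with benzarone in all 3 same-numbered HOXA9 pairs, which are the same libraries for every gene. They were picked by the interaction call, so a smaller rise in the HOXA9 line is part of that choice. The calls rest on single libraries: 0 members were called without EYA1+HOXA9 DMSO replicate 3, HOXA9 benzarone replicate 2 or HOXA9 DMSO replicate 1, 1 without EYA1+HOXA9 benzarone replicate 1, and 2 without HOXA9 benzarone replicate 3, while with any 1 of the 12 libraries left out the 4 differences stayed above 0. With HOXA9 replicate 3 left out in both treatments the only member called was Arg1, in the lower direction (-3.37, adjusted p = 0.018).

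**Figure D3:**
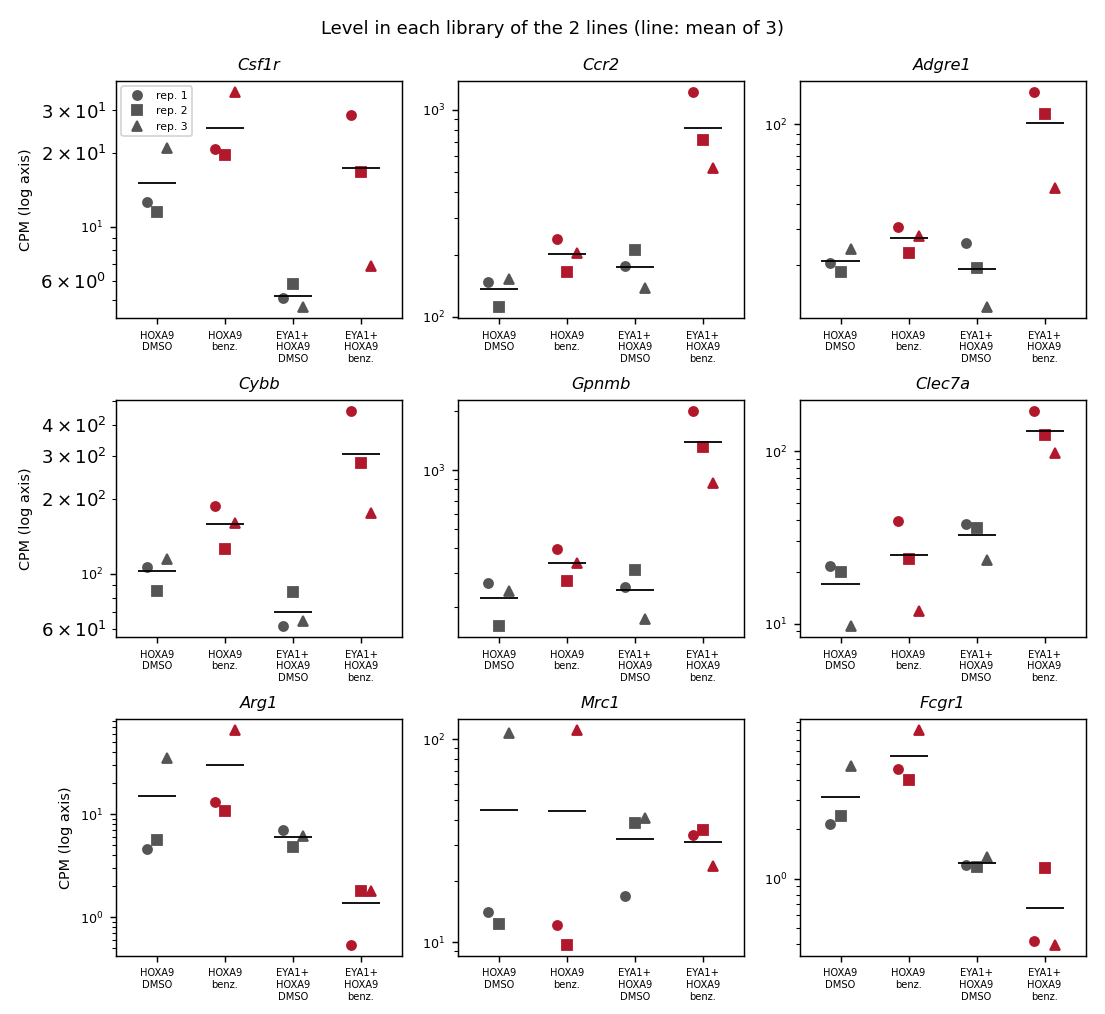
Level in each of the 12 line libraries (CPM, log axis) of 9 members, with the 4 groups along the horizontal axis, 1 point per library (its shape gives the replicate number), red for benzarone, grey for DMSO and a line at the mean of 3. Ccr2 reaches 1224 CPM in the EYA1+HOXA9 line with benzarone and 237 CPM in the HOXA9 line with benzarone, while Mrc1 and Arg1 are high in HOXA9 replicate 3 of both treatments.

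Under benzarone, the EYA1+HOXA9 line exceeded the HOXA9 line in 13 of 36 members and was lower in 4 (25.3% of all genes called, 15.2% higher and 10.1% lower), with a median of 0.51 against -0.01. Ms4a6c was at 21.3, 19.4 and 15.5 CPM against 3.8, 1.87 and 3.06 (2.68 ± 0.25, adjusted p = 1.5e-05), and Clec7a at 171, 124 and 96.9 against 39.4, 23.7 and 11.9 (2.39 ± 0.41, adjusted p = 0.0011). Gpnmb (2.06 ± 0.31), Ccr2 (2.02 ± 0.28), Adgre1 (1.90 ± 0.35) and Lyz2 (1.45 ± 0.29) were also higher with no overlap. In the other direction, Arg1 was at 0.539, 1.79 and 1.79 CPM against 13.3, 10.8 and 66 (-4.46 ± 0.94, adjusted p = 0.0043), Fcgr1 at 0.419, 1.16 and 0.394 against 4.64, 4.01 and 8.09 (-3.07 ± 0.47, adjusted p = 0.00049), and Lpl at 96.6, 52.1 and 40.8 against 135, 126 and 259 (-1.46 ± 0.40, adjusted p = 0.018; 0.059 to 0.074 without EYA1+HOXA9 replicate 2 or 3 or HOXA9 replicate 3). This comparison shares its libraries with the benzarone comparisons above. Csf1r, at 28.9, 16.7 and 6.87 CPM against 20.8, 19.8 and 35.8, overlapped between the lines (-0.54 ± 0.41, adjusted p = 0.37).

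Of 16 regulators of monocyte and macrophage fate, 15 were tested in the lines, and with benzarone in the EYA1+HOXA9 line 7 rose and 1 fell. Of all genes tested, 29.4% were called in that comparison, 17.0% higher and 12.4% lower. Irf8, which commits progenitors to monocytes, rose by 1.37 ± 0.23 (adjusted p = 0.00099), Irf5 by 1.31 ± 0.25 (adjusted p = 0.0022) and Zeb2 by 0.90 ± 0.14 (adjusted p = 0.00087), while Nr1h3, the oxysterol receptor LXR alpha, fell by 0.75 (adjusted p = 0.037) and Spi1, which encodes PU.1, was not called (0.28 ± 0.12, adjusted p = 0.095). In MT2 against ckitDiff, 5 of the 16 fell, among them Runx1 (-2.93 ± 0.23), and 3 rose, Cebpa (2.92 ± 0.33), Cebpb (2.70 ± 0.38) and Spi1 (0.95 ± 0.22). There 29.5% of all genes were called, 16.2% lower and 13.3% higher. Against fresh cells (ckit), 7 of the 16 fell in MT2 and 2 rose, with a median log2 difference of -2.92 and 23.7% of all genes called. Of 41 further monocyte and macrophage genes, 12 of 31 tested rose and 2 fell with benzarone in the EYA1+HOXA9 line, 0 were called in the HOXA9 line and 4 had a positive interaction (Cd14, Ctsl, Ctsk and Ctsb). Over all genes, 17.0% rose and 12.4% fell in the first comparison, 0 were called in the second, and 4.71% had a positive interaction. Of 14 neutrophil and granule genes tested, 1 rose and 3 fell with benzarone in the EYA1+HOXA9 line, Mpo by 4.61 and Elane by 2.29 on the log2 scale. That count was near the 29.4% of all genes called there. The summed level of the 14 genes was 5021 to 6701 CPM against 7391 to 7843 with DMSO. Their part in the members' rise was not tested.

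Single MOZ-TIF2 cells were followed without replicate samples, so no test could be made and intervals cover counting error only. On days 1 and 3 each condition was a sample of its own, with 883 cells for DMSO and 826 for benzarone on day 1 and 829 for benzarone on day 3 (median 42565 to 44761.5 UMIs a cell, UMIs being single captured RNA molecules). On day 5 both conditions were told apart by hashtags within 1 sample, with 1662 DMSO and 1496 benzarone cells (median 24575.5 and 19763 UMIs), and CPM is over the genes each table lists, so levels are compared within a table. Pairs of conditions shared 0 to 3 cell barcodes. The members took 0.311% of all UMIs with DMSO and 0.352% with benzarone on day 1, 0.785% with benzarone on day 3, and on day 5 0.361% with DMSO and 3.63% with benzarone.

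One day of benzarone moved few members: 2 of the 26 with enough UMIs were at least 2-fold higher and 1 lower (0.413% of all genes passed 2-fold, 0.275% higher and 0.138% lower), with a median log2 ratio of 0.18 against -0.00 over all genes. Arg1 was 4.34-fold higher (interval 3.91 to 4.82), at 11.6 CPM with DMSO and 50.3 with benzarone, and Lpl 2.34-fold. Ms4a7, a macrophage tetraspan protein, was at 0.486 of the DMSO level, but 24 of its 36 DMSO UMIs came from 1 cell, and with cells thinned to 10000 UMIs 2 members were higher and 0 lower. Csf1r (9.65 and 9.73 CPM), Adgre1 (4.93 and 4.76), Lyz2 (856 and 927) and Tyrobp (673 and 723) differed by less than 2-fold.

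Between day 1 and day 3 of benzarone, 18 of 29 members were at least 2-fold higher and 0 lower (2.01% of all genes passed, 1.95% higher and 0.0635% lower), with a median log2 ratio of 1.30 against -0.04. The time points are separate samples with no day 3 DMSO sample among those used, so time and sample cannot be told apart. C1qb, with 0 UMIs on day 1, was at least 174-fold higher, and C1qc was 441-fold higher on 1 UMI against 440 (interval 78.7 to 17458). Ms4a7 was 17.9-fold, Mrc1 16.6-fold, Gpnmb 15.5-fold and Maf 8.70-fold higher. Arg1 went from 50.3 to 340.1 CPM, Lyz2 from 927 to 2905 and Spp1 from 239 to 1049, while Csf1r at 9.73 and 18.9 CPM stayed just under 2-fold.

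On day 5, 34 of 38 members were at least 2-fold higher with benzarone and 0 lower, where 30.5% of all genes passed (16.7% higher and 13.7% lower). The median log2 ratio was 3.77 against -0.11 over all genes, and 32 to 34 members passed under the other settings tried. The 17 members between 20-fold and 70-fold were scavenger receptors (Mrc1, Msr1, Marco), Mertk, Trem2, Clec4n, Ms4a7, the 3 C1q genes, Maf, Lyz1, and the lipid and remodelling genes Lpl, Gpnmb, Fabp4, Mmp12 and Arg1. Another 7 lay between 10-fold and 20-fold (Adgre1, Itgam, Cd36, Lyz2, Cd68, Lgals3, Spp1), 5 between 5-fold and 10-fold (Csf1r, Cybb and the receptors Fcgr1, Fcgr3 and Fcgr4) and 5 between 2-fold and 5-fold (Ccr2, Itgax, Fcer1g, Tyrobp, Ms4a6c).

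**Figure D4:**
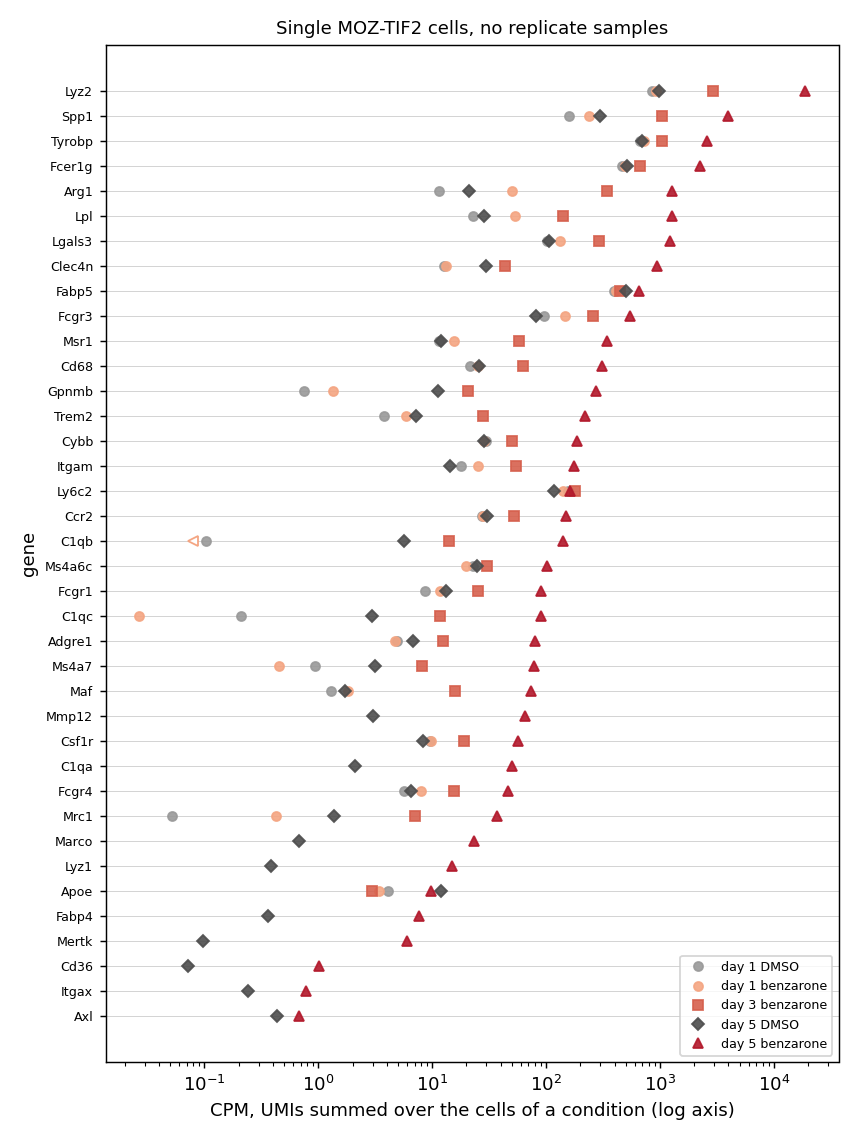
Level of each listed member (CPM of the UMIs summed over a condition's cells, log axis) in DMSO and benzarone on day 1, benzarone on day 3, and DMSO and benzarone on day 5, with 1 point per condition and an open arrow at the 3-count limit where no UMI was seen. On day 5 Lyz2 is at 18869.6 CPM with benzarone against 983 with DMSO, and Apoe, at 9.83 against 12 CPM, is lower.

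Csf1r was at 8.24 CPM with DMSO and 57.0 with benzarone on day 5 (6.91-fold, interval 6.16 to 7.78), and Ccr2 at 30.1 and 151 (5.00-fold). Adgre1 was at 6.72 and 79.2 CPM (11.8-fold), and Itgam at 14.4 and 175 (12.2-fold). Tyrobp was at 695 and 2574 CPM (3.70-fold), and Fcgr1 at 13.3 and 90.5 (6.82-fold). Every role group had members past 2-fold on day 5. Lyz2 was at 983 and 18869.6 CPM (19.2-fold, interval 19.0 to 19.4). Arg1 was at 21.2 and 1276 CPM (60.2-fold, interval 56.3 to 64.4), and Mertk, on 4 UMIs against 194, was 62.2-fold higher (interval 23.9 to 231). Clec4n was at 30.0 and 941 CPM, Trem2 at 7.23 and 218, Msr1 at 12 and 343, and Spp1 at 299 and 3957. Under 2-fold were Axl (1.57, interval 0.803 to 3.10), Ly6c2 (1.39), Fabp5 (1.28) and Apoe (0.821).

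Most day 5 benzarone cells held many members. With each cell thinned to 10000 UMIs, which left out 42 DMSO and 126 benzarone cells on day 5, a cell held a median of 8 of the 38 members with DMSO and 18 with benzarone. At least 15 members were seen in 1.67% of DMSO cells (95% exact binomial interval 1.10 to 2.42) and in 74.1% of benzarone cells (71.7 to 76.4). On day 1 the share was 1.93% with DMSO and 2.54% with benzarone, and on day 3 11.6%, out of 29 listed members, with a median of 6, 6 and 7 members a cell. The number of listed members differs between the tables, so these shares are compared within days 1 and 3 or within day 5.

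**Figure D5:**
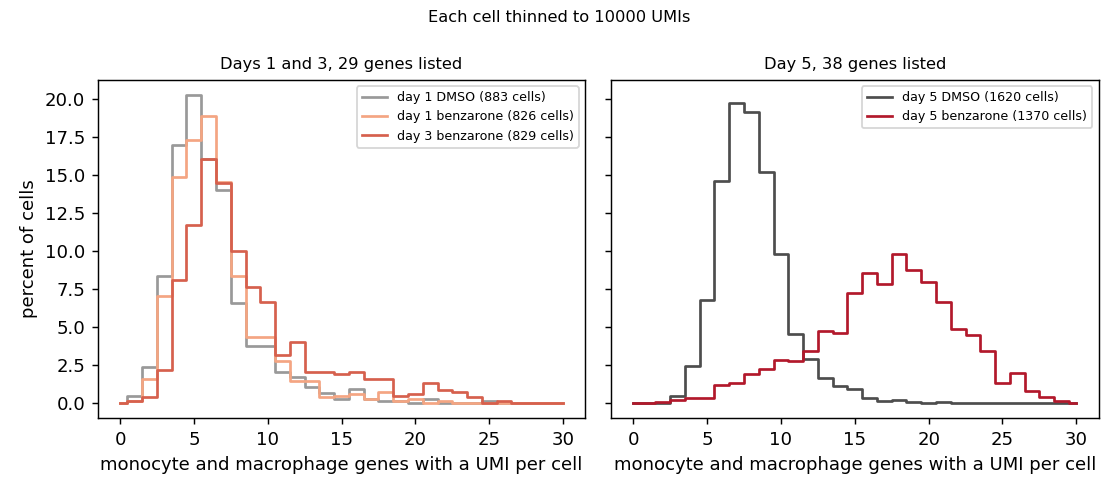
Percent of cells (vertical axis) by the number of members with a UMI per cell (horizontal axis) after thinning to 10000 UMIs, with 1 line per condition, days 1 and 3 on the left (29 members listed) and day 5 on the right (38 listed). DMSO cells on day 5 centre on 8 members and benzarone cells on 18, while on day 3 a tail of 11.6% of cells holds 15 or more.

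After thinning, Arg1 was seen in 1.59% of DMSO and 3.51% of benzarone cells on day 1, 15.6% on day 3, and 18% of DMSO and 54.2% of benzarone cells on day 5. On day 3 the tenth of cells with the most other members held 82.4% of Arg1 UMIs, and on day 5 20.8% with benzarone and 15.2% with DMSO. On day 3 most Arg1 UMIs thus lay in the most member-rich cells. The day 5 DMSO cells shared their sample with benzarone cells rich in Arg1, and the part of free RNA in their Arg1 counts was not tested. Csf1r was seen in 7.84% and 34.3% of day 5 cells, Adgre1 in 5.68% and 45.5%, and Lyz2 in 99.0% and 100% (unthinned or thinned to fewer UMIs, 65 such shares moved beyond their counting interval and 5 did not). The C1q genes were concentrated: on day 5, 141 of 1496 benzarone cells held at least 10 C1q UMIs each and 91.1% of the 9051 in all, and on day 3, 18 of 829 cells held 90.2% of 961. In day 5 DMSO cells 444 C1q UMIs fell in 382 of 1662 cells, none with more than 7, whereas on day 1 the DMSO sample had 12 UMIs, all in 1 cell. The part of free RNA in these low, even counts was not tested either, nor was that of doublets, since no doublet caller was run (84 benzarone and 5 DMSO cells had over 2 times their median UMIs).

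The regulators on day 5 were higher in 9 of 14 and lower in 1 (Cebpa, at 0.365 of the DMSO level), with Egr2 26.3-fold and Irf5 5.01-fold higher and Spi1 1.5-fold. For this list and those below, the shares of all genes past 2-fold were 16.7% higher and 13.7% lower. Of 33 further monocyte and macrophage genes listed, all 33 were at least 2-fold higher. Neutrophil and granule genes split: 8 of 14 were higher, among them Mmp9 (26.9-fold), Retnlg (15.4-fold), Mmp8 (7.28-fold) and Ltf (5.40-fold), and 4 lower, Mpo (0.0466), Ctsg (0.141), Elane (0.146) and Prtn3 (0.215). Their summed share of UMIs was 1.95% with DMSO and 2.29% with benzarone, and Pf4, a platelet chemokine, was 28.6-fold higher. Their part in the members' rise was not tested.

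Ty1 chromatin immunoprecipitation, which maps the tagged MOZ-TIF2 protein, gave 3676 and 4564 peaks in the authors' 2 lists, of which 3303 of the first met a peak of the second by at least 1 base. A shared peak lay within 5 kb of a gene end for 2 of 40 members, Axl and Tyrobp, against 25.1% of 14498 genes. The nearest first-list peak was chr7:25753752-25754701 for Axl, 1799 bases from the gene, and chr7:30421802-30422251 for Tyrobp, 4220 bases from it (GRCm38). The Axl peak lay past the gene end opposite its start site, and the Tyrobp peak past the gene end with the higher coordinate. Axl RNA was lower in MT2 than in both other groups, and Tyrobp RNA was lower than in ckitDiff. A link between these peaks and the RNA was not tested. No peak covered a member's promoter window, including the 4 printed above, in either list. Within 50 kb the count was 10 members, against 44.5% of genes, and within 1 kb it was 0 against 21.4%. The label of the second list names an antibody number that the series also gives for an acetyl-histone sample, so that list may not be a repeat of the first, and with the first list alone 3 members had a peak within 5 kb (Axl, Fcgr3 and Tyrobp).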

How the data were processed

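The members and the gene lists were chosen with earlier results of these data known. Both bulk tables were deposited as estimated counts, not whole and not normalized; the submitters' processing notes name Salmon 0.13.0, Bowtie2, Cell Ranger 3.0.0 and GRCm38, without giving their role, and per the labels' protocols the RNA libraries are poly(A) selected and strand-specific. The single-cell tables are counts of UMIs per gene and cell that the authors deposited, with a condition for each cell, for part of the genes. The peak lists give other values, the start and end positions that the authors deposited; the peak caller is not given in the sources used here.

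Estimated counts were rounded to whole numbers and tested with edgeR 4.0.16 (R 4.3.3): TMM factors, filterByExpr, 1 quasi-likelihood fit per table with all its groups, two-sided, Benjamini-Hochberg adjustment over all genes tested, threshold 0.05. Groups came from the labels. Named with values were up to 8 called members a comparison with the largest difference, no overlap and at least 10 CPM, and Csf1r, Adgre1, Lyz2, Fcgr1, Itgam, Tyrobp and Arg1 always. Values are also given for some members outside this rule, among them Ccr2 and Cybb in the c-Kit+ cells and Mertk in the lines. Close paralogues (Lyz1 and Lyz2, the Fcgr genes, Ms4a genes, Fabp4 and Fabp5) may share reads. UMIs were summed per condition; a member counted when its ratio reached 2-fold on at least 20 UMIs, with exact 95% intervals. Cells were thinned to 10000 UMIs for shares. Same-numbered HOXA9 libraries correlated in their deviations from the group means (0.389 to 0.793 over 3 pairs, all over 0.1), so the numbers pair them, judged from the data; other pairs of groups did not meet this. Alternatives were DESeq2 1.42.0, RLE factors, no filter, the replicate block and leaving out each library. The scripts were tested on simulated data. Acetyl-histone and input samples were not used here. The values of 1 regulator are not reported here.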

Additional observations from a re-analysis of the deposited data

Results flagged for a closer look

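Of the 36 members tested, 4 responded to benzarone differently in the 2 lines by the interaction test itself (edgeR's quasi-likelihood test, 12 libraries). The same test called 7.54% of all genes. The log2 rise in the EYA1+HOXA9 line exceeded that in the HOXA9 line by 2.03 for Adgre1, 1.92 for Gpnmb, 1.67 for Ccr2 and 1.49 for Cybb. All 4 differences stayed above 0 whichever single library was left out, from 1.67 to 2.37 for Adgre1, 1.54 to 2.17 for Gpnmb, 1.24 to 1.91 for Ccr2 and 1.05 to 1.76 for Cybb. The calls did not hold in each of these fits: between 0 and 6 members were called.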

How the results depend on the processing

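With 2 or 3 libraries a group, leaving out 1 library changed many counts (fewer samples in each such fit). Called members ranged from 8 to 23 (23 with all libraries) and called genes from 374 to 3181 (3602) for MT2 against ckit, 7 to 20 (20) and 1259 to 4891 (6198) for ckitDiff against ckit, 24 to 27 (24) and 2847 to 4278 (4486) for MT2 against ckitDiff, 6 to 8 (11) and 1735 to 3486 (3061) for EYA1+HOXA9 against HOXA9 with DMSO, 12 to 19 (17) and 2211 to 3596 (3382) for the same with benzarone, 11 to 16 (16) and 2353 to 3923 (3933) for benzarone in EYA1+HOXA9, 0 to 0 (0) and 0 to 1 (0) for benzarone in HOXA9, and 0 to 6 (4) and 408 to 1182 (1009) for the interaction. Where an arm was left with 1 library, that library was assumed to vary like the other groups. Without HOXA9 replicate 3 in both treatments, chosen after seeing the data, the interaction was called for 1 member and 535 genes.

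With the replicate number as a block, 2094 genes were called for MT2 against ckit and 6 for benzarone in HOXA9, and 20 in a paired fit of that line alone, also chosen after seeing the data; called members were 21, 17, 23, 12, 19, 17, 0 and 6 in the order above. Outside the HOXA9 line the libraries share only a number (correlations of -0.37 to 0.29). In those comparisons the block ended the calls of Fcgr1 and Fcgr3 (MT2 against ckit), Clec4n and Fcgr4 (MT2 against ckitDiff), Clec7a, Lgals3, Msr1 and Trem2 (ckitDiff against ckit) and Fcgr1 (lines with DMSO). DESeq2 called 14 genes for benzarone in HOXA9 and 1716 for the interaction. Members with a shared Ty1 peak numbered 0 within 1 kb and 10 within 50 kb.

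Signs turned only for log2 differences that were not called, each with a library left out (range over such fits): Itgam in MT2 against ckit (-0.39 to 1.38, negative without MT2 replicate 2), Fcgr1 in ckitDiff against ckit (-1.16 to 0.19, positive without ckitDiff replicate 2), Arg1 (-7.65 to 2.79, same library) and Lyz2 (-2.47 to 0.034, without MT2 replicate 1) in MT2 against ckitDiff, Tyrobp under benzarone in EYA1+HOXA9 (-0.23 to 0.016, without DMSO replicate 1) and in HOXA9 (-0.050 to 0.31, without benzarone replicate 1), and Arg1 under benzarone in HOXA9 (-0.33 to 2.56, without benzarone replicate 3). Between the lines with DMSO they were Adgre1 (-0.40 to 0.11, without EYA1+HOXA9 replicate 3), Itgam (-0.047 to 0.10, without replicate 2 of either line) and Arg1 (-1.77 to 0.23, without HOXA9 replicate 3, and 0.23 without it in both treatments). The cause was not tested. Of the named differences with 1 library left out, 620 kept their side of the threshold, 165 lost a call, 18 gained one and 11 changed sign.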

Other observations

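On day 5 genes of other lineages also differed in the single MOZ-TIF2 cells, where 16.7% of all genes were at least 2-fold higher and 13.7% lower. All 4 listed stem and progenitor genes were at least 2-fold lower, their summed level being 58.2 CPM with DMSO and 7.14 with benzarone, and of 7 genes marking mast cells and basophils 5 were at least 2-fold lower, with sums of 53.9 and 13.2 CPM. Both full lists include Kit and Gata2, so the 2 falls can count the same genes. Of 4 dendritic cell genes 3 were higher and 1 lower, at 138 and 425 CPM in sum. With 1 sample these differences have no test. In the bulk lines, 3 of 5 dendritic cell genes tested rose with benzarone in the EYA1+HOXA9 line and 0 fell, and 2 of 3 stem and progenitor genes fell. Of all genes tested, 17.0% rose and 12.4% fell in that comparison.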
